A study of Arabidopsis thaliana with 24 samples.

Results

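The change in total RNA over the first hours of the morning was compared between Arabidopsis thaliana seedlings held at 17°C and at 27°C. For each probe set the measure was a difference of differences in log2 signal, namely the change at 27°C minus the change at 17°C. The comparison used the 12 total RNA arrays, 4 groups of 3, out of 24 arrays in all, and the 12 arrays of labeled and unlabeled RNA served only as a description beside it. Positive values mean that a transcript rose more, or fell less, at 27°C. Negative values mean the reverse.

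All seedlings were of the ecotype Columbia, 10 days old by the sample labels and a day older by the methods, and carried no transgene or mutation in either source. They were germinated at 22°C for 3 days, kept at 17°C or 27°C for 7 days in 12 hours of light and 12 hours of dark, and floated on liquid medium for the last 12 hours. Time 0 was shortly after dawn, when 4-thiouridine (4SU), a uridine analog that plants build into new RNA, was added to the seedlings that were collected later. The groups were therefore 17°C at 0 h and 27°C at 0 h, both without 4SU, then 17°C after 2 h and 27°C after 1 h, both with 4SU. A 4SU concentration of 1.5 mM is on the labels of all end samples, but by the methods the amount was set for each condition. The change at 17°C thus spans 2 h and that at 27°C spans 1 h. Temperature, the length of the interval and any difference in 4SU supply cannot be told apart in the difference between the changes, nor can light, time and 4SU within each change. The replicates were biological by the methods, the material was whole seedlings, and fewer cells of a type and less RNA per cell cannot be told apart in such RNA.

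Around dawn a plant switches between programs. The circadian clock, a loop of mutually repressing transcription factors, sets many transcripts to peak before, at or after first light, and light itself then turns genes on or off. Warmth acts on the same transcripts through heat shock factors, through growth hormone pathways and through the clock, whose period is held nearly constant over ambient temperatures while the height of its rhythms is not. A gene that answers dawn in a way that depends on temperature can appear in these data as a difference between the changes. It can also be missed, since the interval was shorter at the warmer temperature. A faster response there can give a change of similar size to a slower response over the longer interval.

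Each array reports MAS5 signals, a linear brightness per probe set that the authors scaled to a common mean per array. Of 22746 probe sets without the control probes, 12906 had a signal of at least 50 on all 12 total RNA arrays and were tested. Their log2 signals correlated between replicates of a group with a Pearson's r of 0.971 to 0.987 across probe sets, and no arrays held identical values. The shoot gene RCA, which encodes Rubisco activase, had signals of 15400 to 24100, and the chloroplast regulator GLK2 had 1800 to 3910. EXPA7, the only root marker of 9 with a named and tested probe set, had signals of 129 to 221. Scan dates and slide batches are not given in the sources used here.

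The morning change differed between the temperatures for 307 probe sets, 2.38% of those tested, at a Benjamini-Hochberg adjusted p under 0.01 and a difference above 1.5-fold in limma. Of these, 93 (0.721%) had a higher change at 27°C and 214 (1.66%) a lower one. The median difference was 1.31 in the first set and -1.46 in the second, against 0.03 over all probe sets tested. In every called probe set, each of the 9 changes that can be formed between the arrays of 27°C lay on the same side of all 9 formed at 17°C, which held for 13.5% of all probe sets tested, 6.61% with changes above and 6.87% with changes below those at 17°C. An unadjusted p under 0.05 was found for 3021 probe sets.

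The size of both sets depended on single arrays. The set with a higher change fell to 42 without 17°C 0 h replicate 1, 44 without replicate 2 of that group, 41 without 17°C 2 h replicate 1, 55 and 49 without 27°C 0 h replicates 1 and 3, and 51 and 42 without 27°C 1 h replicates 1 and 3. The set with a lower change fell to 127, 124, 132, 135 and 117 without the first 5 of these arrays and to 121 without 27°C 1 h replicate 3. The text names 61 called genes, of which 36 kept their call whichever of the 12 arrays was left out, and it draws its main examples from those.

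**Figure D1:**
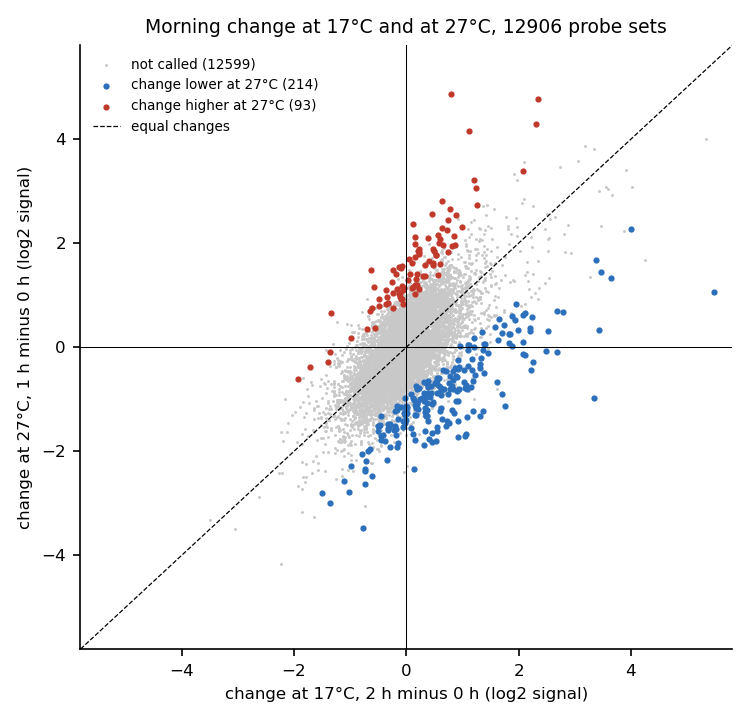
The log2 change in signal at 17°C (2 h minus 0 h, horizontal axis) is plotted against the change at 27°C (1 h minus 0 h, vertical axis) for the 12906 probe sets tested, with the dashed line marking equal changes. The 93 red points lie above the line and the 214 blue points below it, with most red points to the left of a change of 1 at 17°C and most blue points below 0 at 27°C.

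The sets with a higher and a lower change at 27°C were built differently from the single changes. Among the 93 with a higher change, 86 rose at 27°C, and 66 of those had no called change at 17°C. Another 17 rose at both temperatures, and 3 rose at 27°C and fell at 17°C. Among the 214 with a lower change, 145 fell at 27°C and 95 rose at 17°C. A fall at 27°C with no call at 17°C accounted for 111 probe sets, a rise at 17°C with no call at 27°C for 58, and opposite called changes for 26. For scale, 11.3% of all probe sets tested were called as rising and 14.5% as falling at 27°C, and 5.78% and 6.6% at 17°C. Calls at 27°C only were 7.75% rising and 9.72% falling, and 2.08% rose at 17°C only. Called rises at both temperatures were 3.5%. A rise at 27°C with a fall at 17°C was 0.0232%, and the reverse 0.201%. These single changes share arrays with the difference and describe it without adding a test.

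Many of the called probe sets differed between temperatures at time 0 and no longer at the end. A called gap at time 0 with none at the end was found for 62 of the 93 and for 125 of the 214, against 16.4% of all probe sets tested. In the set with a higher change, 70 had a lower signal at 27°C at time 0, and in the set with a lower change, 158 had a higher signal at 27°C at time 0. Called gaps at time 0 were found for 22.8% of all probe sets tested, and called gaps at the end for 4.97% upward and 5.87% downward. The reverse course, a gap at the end with none at time 0, was seen for 16 and 50, against 4.42% of all tested. Called gaps of opposite sign at time 0 and at the end occurred in 4 and 24 probe sets, beside 0.217% of all tested. The signals of both temperatures enter the gaps and the difference alike, so these counts describe how the difference arose.

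**Figure D2:**
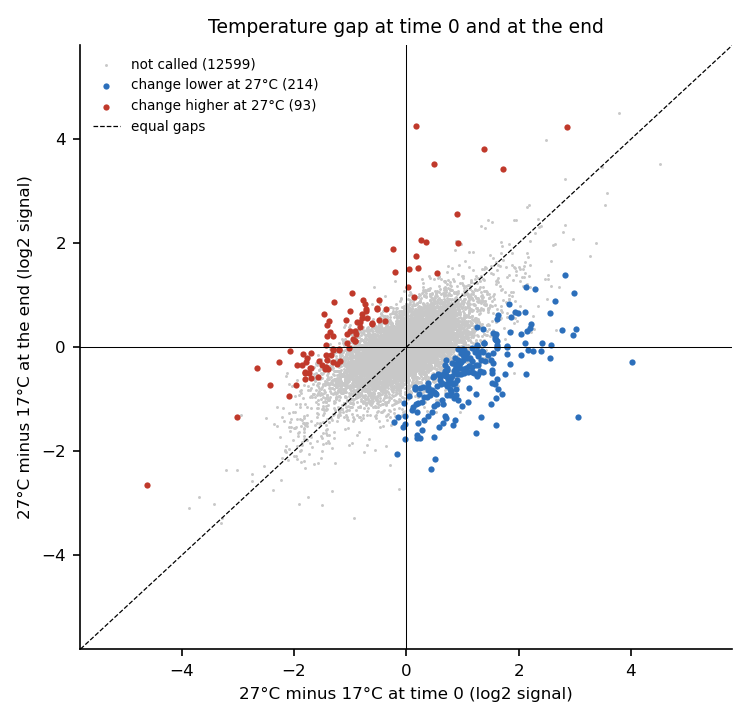
The temperature gap, 27°C minus 17°C in log2 signal, is plotted at time 0 (horizontal axis) and at the end (vertical axis), and the dashed line marks a gap that did not change. The 93 red points lie mostly left of 0 at time 0 and the 214 blue points mostly right of 0. At the end the red points are spread around 0 with a tail above 3, and 174 of the blue points lie below 0.

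Among probe sets above the limit on signal, the largest difference with a named locus was that of AT1G54050, a member of the heat shock list. Its signals at 17°C were 111, 151 and 66.3 at 0 h and 214, 188 and 144 after 2 h. At 27°C they were 153, 76.3 and 134 at 0 h and 2920, 2940 and 4590 after 1 h. The 3 arrays of 27°C at 1 h stood far above all the others, and the temperatures overlapped at time 0. The change was 4.87 ± 0.31 (SE) at 27°C and 0.80 ± 0.31 at 17°C on the log2 scale, a difference of 4.08 ± 0.43 (adjusted p = 0.000124).

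AT2G29500, also on the heat shock list, followed the same course. It had 85.7, 71.8 and 66.8 at 17°C at 0 h and 191, 112 and 194 after 2 h, against 121, 79.9 and 117 at 27°C at 0 h and 1430, 1550 and 2890 after 1 h. It rose at both temperatures, by 4.15 at 27°C and 1.11 at 17°C, and the rises differed by 3.04 ± 0.38 (adjusted p = 0.000415). Heat shock proteins hold unfolding proteins in solution, and their genes are classical targets of heat shock factors.

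A chaperone of the plastid moved in the same way. Cpn60beta2, a subunit of the chaperonin that folds proteins in chloroplasts, had 701, 880 and 778 at 17°C at 0 h and 1160, 1730 and 1480 after 2 h, and 1070, 935 and 984 at 27°C at 0 h and 5660, 5450 and 6390 after 1 h. The difference was 1.67 ± 0.22 (adjusted p = 0.000568). No signal at 27°C after 1 h came near those of the other groups. The other 2 chaperonin subunits of this kind with a tested probe set, Cpn60beta3 and Cpn60beta4, had differences of 0.29 and 0.15 and were not called.

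AT3G26510, AT1G30070 and AT1G65490, for which the annotation used here gives no name, also ended higher at 27°C. AT3G26510 had 1370, 1390 and 1710 at 17°C at 0 h, 1480, 2070 and 1630 after 2 h, 1210, 1380 and 1270 at 27°C at 0 h, and 5090, 3970 and 5060 after 1 h, a difference of 1.65 ± 0.23 (adjusted p = 0.000739). Its 9 other arrays overlapped in a narrow band. AT1G30070 rose by 3.05 at 27°C and 1.24 at 17°C (difference 1.81, adjusted p = 0.00419), and AT1G65490 rose at 27°C with an uncalled estimate of 0.64 at 17°C (difference 1.66, adjusted p = 0.00552). The calls of the last 2 genes were lost in 6 and 5 of the 12 fits that left out an array.

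A larger group started the morning lower at 27°C and drew level. AT2G34620 had 869, 853 and 982 at 17°C at 0 h and 819, 922 and 1240 after 2 h, while at 27°C it had 148, 155 and 127 at 0 h and 919, 548 and 800 after 1 h. At 17°C the signal overlapped between the times, and at 27°C it rose out of a low dawn level. The difference was 2.25 ± 0.28 (adjusted p = 0.000350). AT4G26600 (difference 1.84), AT1G08610 (1.65) and AT1G66250 (1.53) had called gaps of -1.40, -1.36 and -1.31 at time 0 and estimated gaps of 0.44, 0.29 and 0.22 at the end, none of them called.

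AT5G48490 had a wide gap at dawn, and the widest among the named genes with a signal of at least 50 on every array. Its signals were 3830, 3640 and 3650 at 17°C at 0 h and 4020, 4490 and 3820 after 2 h, against 111, 195 and 158 at 27°C at 0 h and 835, 518 and 643 after 1 h. It rose by 2.11 at 27°C alone (difference 1.97 ± 0.28, adjusted p = 0.00101) and its gap of -2.65 at the end was still called, with no overlap between the temperatures at either time.

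The remaining genes of the rule with a higher change were AT4G09890 (difference 2.11), AT1G19330 (1.72), AT3G10530 (1.47) and AT5G25280 (1.46). All 4 rose at 27°C. The calls of the last 3 were lost in 9 or 10 of the 12 fits that left out an array.

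**Figure D3:**
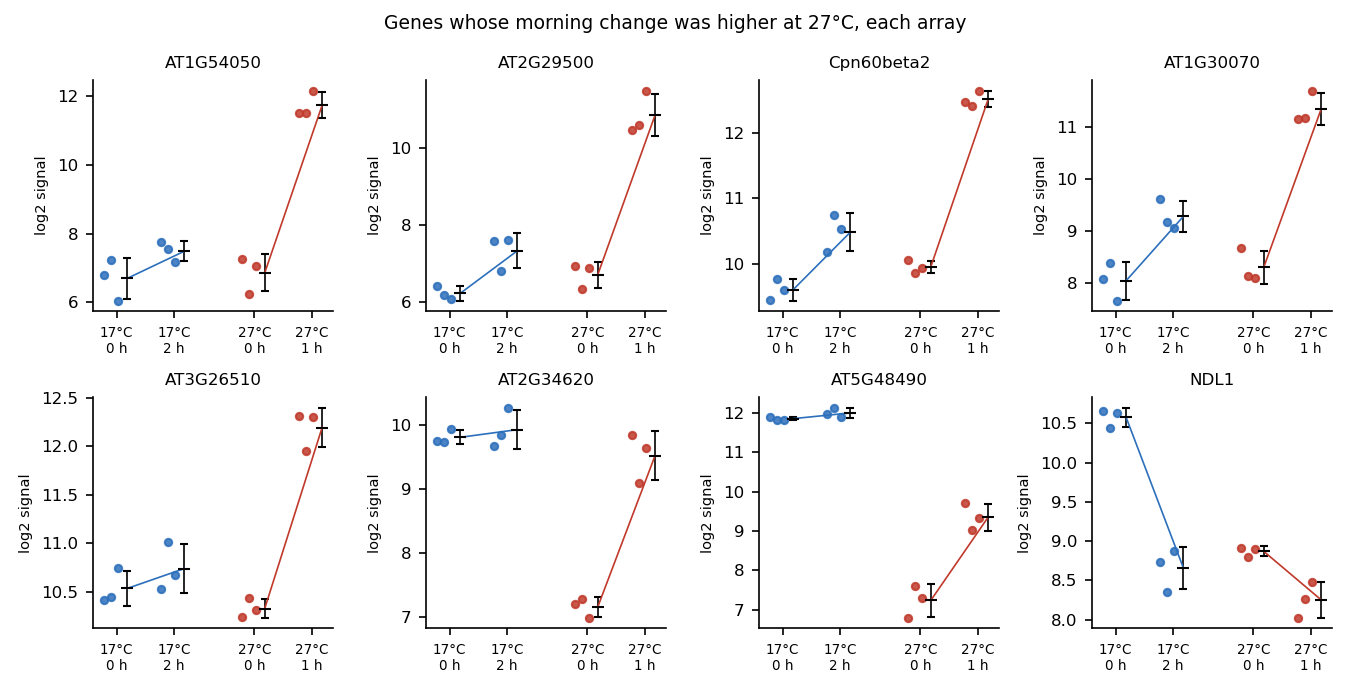
The log2 signal of each of the 12 total RNA arrays (points, blue for 17°C and red for 27°C) is shown for 8 genes whose change was higher at 27°C, with the group mean and SD (n = 3) in black and a line joining the means of each temperature. In the first 5 panels the 1 h arrays of 27°C stand alone at the top, AT2G34620 and AT5G48490 climb from a low dawn level at 27°C, and NDL1 falls at both temperatures.

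Only 3 genes with a symbol were in the set with a higher change, and those not covered by the rule for named genes, here and below, were chosen after their values were seen. NDL1, an N-MYC downregulated-like protein that binds the heterotrimeric G protein, fell less at 27°C than at 17°C. It had 1620, 1390 and 1590 at 17°C at 0 h and 426, 327 and 471 after 2 h, against 483, 445 and 476 at 27°C at 0 h and 260, 306 and 356 after 1 h. It fell by 1.93 at 17°C and fell by 0.62 at 27°C (difference 1.31, adjusted p = 0.00377), and the call was lost without 17°C 0 h replicate 1 and without 27°C 1 h replicate 3. It was also lost when the change at 17°C was divided by its 2 h (difference 0.34, adjusted p = 0.180). ATO, a splicing factor gene known from female gametophyte mutants, rose by 0.80 at 27°C with an uncalled estimate of -0.49 at 17°C (difference 1.29, adjusted p = 0.00231), starting from 123, 121 and 116 at 27°C against 386, 372 and 403 at 17°C.

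Opposite changes were most plain in the set with a lower change at 27°C. RR16, a type-A response regulator of the cytokinin pathway, had 63.1, 84.2 and 50 at 17°C at 0 h and 136, 139 and 126 after 2 h, whereas it had 496, 240 and 464 at 27°C at 0 h and 120, 107 and 122 after 1 h. It rose by 1.05 at 17°C and fell by 1.71 at 27°C, a difference of -2.77 ± 0.34 (adjusted p = 0.000367). The temperatures were far apart at dawn and came close at the end.

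AT1G21680 did the same at a much higher signal and with the smallest adjusted p of the named genes. It had 1190, 1050 and 1300 at 17°C at 0 h and 2690, 2670 and 3450 after 2 h, and 5260, 5440 and 4720 at 27°C at 0 h and 2050, 2240 and 1850 after 1 h (difference -2.64 ± 0.21, adjusted p = 1.07e-05). The 4 groups did not overlap. AT4G28310 (difference -2.60), AT1G08230 (-2.43), AT2G28720 (-2.33) and AT2G16660 (-1.94) also had called changes of opposite sign. AT4G28310 crossed over, with a called gap of 1.50 at time 0 and of -1.10 at the end, while AT2G16660 stayed higher at 27°C throughout, by 2.99 and then 1.05.

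Above the limit of 50 on signal, the lowest 5 differences belonged to probe sets without a gene name in the sources used here, and reached -4.40 in a probe set that rose by 5.47 at 17°C and by 1.07 at 27°C.

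A group of genes rose at 17°C and moved little or less at 27°C. IAGLU, which attaches glucose to the auxin indole-3-acetic acid, had 2060, 1900 and 2000 at 17°C at 0 h and 5040, 5090 and 4910 after 2 h, and 4280, 4290 and 4900 at 27°C at 0 h and 4230, 3990 and 3440 after 1 h (difference -1.55 ± 0.18, adjusted p = 0.000234). At 17°C it ended just above the dawn signals at 27°C. OCT5, an organic cation and carnitine transporter, had 518, 440 and 449 at 17°C at 0 h and 1210, 1070 and 1230 after 2 h, and 583, 663 and 510 at 27°C at 0 h and 445, 437 and 441 after 1 h (difference -1.72 ± 0.19, adjusted p = 0.000176). Its signals at 17°C after 2 h stood alone above all others.

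Further glucosyltransferases were of this kind. UGT73B1, which acts on flavonoids, rose from 471, 345 and 429 to 1430, 1460 and 1690 at 17°C and from 380, 412 and 418 to 642, 641 and 561 at 27°C (difference -1.28, adjusted p = 0.00197). GT72B1, which glucosylates foreign phenols and lignin precursors, rose from 272, 229 and 327 to 1260, 1080 and 1230 at 17°C and from 549, 371 and 448 to 766, 650 and 725 at 27°C (difference -1.46, adjusted p = 0.00257). Both rose at each temperature, and rose more over the 2 h at 17°C. When the change at 17°C was divided by its 2 h, both calls were lost (adjusted p = 0.139 and 0.142). UGT71C4 rose at 17°C alone (difference -1.29, adjusted p = 0.00777), a call lost in 11 of the 12 fits that left out an array. In all, 4 of 28 tested UDP-glycosyltransferases, a family assembled by symbol after these values were seen, were called lower and none higher, beside 1.66% and 0.721% of all probe sets tested, and the median difference was -0.32 against 0.03.

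The cytochrome P450 gene CYP71B26 rose from 120, 106 and 102 to 383, 355 and 325 at 17°C, and at 27°C it had 725, 722 and 879 at 0 h and 866, 907 and 1020 after 1 h (difference -1.43, adjusted p = 0.000666). It was higher at 27°C at both times, and the call was lost when the change at 17°C was divided by its 2 h. Of 14 tested genes with a CYP symbol, CYP71B26 and CYP96A1 (difference -1.33) were called lower and none higher, beside 1.66% lower over all probe sets tested. The median was -0.02 against 0.03. This set was assembled by symbol after these values were seen, and it also holds CYP71 and CYP59, which are cyclophilins and not P450 enzymes. The call of CYP96A1 was lost in 10 of the 12 fits that left out an array. AT5G35735 (difference -2.56) and IQD24 (-1.35), of a family of calmodulin-binding proteins, also rose at 17°C with no call at 27°C.

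The commonest course in the set with a lower change was a fall at 27°C from a dawn level above that at 17°C. HEC1, a basic helix-loop-helix transcription factor known from fruit and pistil development, had 203, 112 and 132 at 17°C at 0 h and 199, 181 and 158 after 2 h, and 497, 555 and 748 at 27°C at 0 h and 221, 148 and 127 after 1 h (difference -2.19 ± 0.34, adjusted p = 0.00178). Only the dawn arrays of 27°C stood apart. Rap2.6L, an AP2/ERF transcription factor of stress and wound responses, had 969, 846 and 1010 at 17°C at 0 h, 846, 850 and 836 after 2 h, 2260, 1800 and 2500 at 27°C at 0 h, and 653, 592 and 568 after 1 h (difference -1.69 ± 0.20, adjusted p = 0.000281). Here the signal at 27°C began above all arrays of 17°C and ended below all of them.

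CAX7, a cation exchanger, fell at 27°C from 829, 681 and 808 to 309, 324 and 242, beside 305, 298 and 348 and then 403, 452 and 393 at 17°C (difference -1.81 ± 0.21, adjusted p = 0.000234). XYL4, a beta-xylosidase of the cell wall, fell from 5270, 4510 and 5020 to 1710, 1560 and 1890 at 27°C, beside 1970, 2210 and 2040 and then 1480, 1660 and 1890 at 17°C (difference -1.21, adjusted p = 0.00219). FCA, an RNA-binding protein that promotes flowering, fell from 332, 391 and 368 to 168, 173 and 198 at 27°C, beside 205, 181 and 189 and then 183, 233 and 222 at 17°C (difference -1.16, adjusted p = 0.00302). In all 3 genes the dawn arrays of 27°C lay above every other array.

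MKK9, a MAP kinase kinase of stress and ethylene signaling, ended apart instead. It had 578, 510 and 411 at 17°C at 0 h and 598, 717 and 729 after 2 h, and 950, 574 and 862 at 27°C at 0 h and 299, 267 and 188 after 1 h (difference -2.11 ± 0.30, adjusted p = 0.000960). The temperatures overlapped at dawn, and the gap of -1.46 was called at the end only. AT1G44830 (difference -2.69), AT4G35940 (-2.15), AT4G37240 (-1.93), AT5G05190 (-2.33), AT4G37220 (-2.28) and AT1G19540 (-1.90) complete the genes of the rule in this set, and all 6 fell at 27°C. The calls of the last 3 were lost in 7 or 8 of the 12 fits that left out an array.

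Called falls at both temperatures were found for 8 of the 214 (3.74%), beside 4.58% of all probe sets tested. A larger fall at 27°C in these 8 follows from how the set was selected, and the interval there was the shorter one. FLS2, the receptor kinase that senses bacterial flagellin, had 451, 485 and 389 at 17°C at 0 h and 173, 184 and 161 after 2 h, and 749, 720 and 817 at 27°C at 0 h and 102, 121 and 71.5 after 1 h. It fell by 2.99 at 27°C and by 1.35 at 17°C (difference -1.64 ± 0.25, adjusted p = 0.00145), from above to below the signals at 17°C. The defense genes LYK3, a LysM receptor-like kinase (difference -1.31, adjusted p = 0.00589), and RPP4, a resistance gene against downy mildew (-1.58, adjusted p = 0.00419), had lower changes at 27°C too. Both fell at 27°C, and neither had a called change at 17°C (estimates of -0.68 and 0.34). Their calls were lost in 8 and 3 of the 12 fits that left out an array.

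The other genes with a symbol in this set covered several functions. Transcriptional regulators were GBF1, a bZIP factor that binds the G-box (difference -0.87), ERF9, an AP2/ERF repressor (-1.65), NAC6, also known as ORE1, a promoter of leaf senescence (-1.24), and ULT1, a trithorax group factor of the floral meristem (-1.15). Enzymes were MGL, methionine gamma-lyase (-1.06), BGAL4, a beta-galactosidase (-1.36), TRZ1, a tRNA processing nuclease (-1.17), and AAE17, an acyl-activating enzyme (-1.20). ATL8, a RING finger protein (-1.63), CCL, a transcript known for decay under clock control (-1.46), SRC2 (-1.17) and TRM28 (-1.01) were the rest. All but CCL and TRZ1 fell at 27°C, whereas those 2 rose at 17°C. Their adjusted p lay between 0.00329 and 0.00992, and each of these calls was lost in at least 2 of the 12 fits that left out an array.

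**Figure D4:**
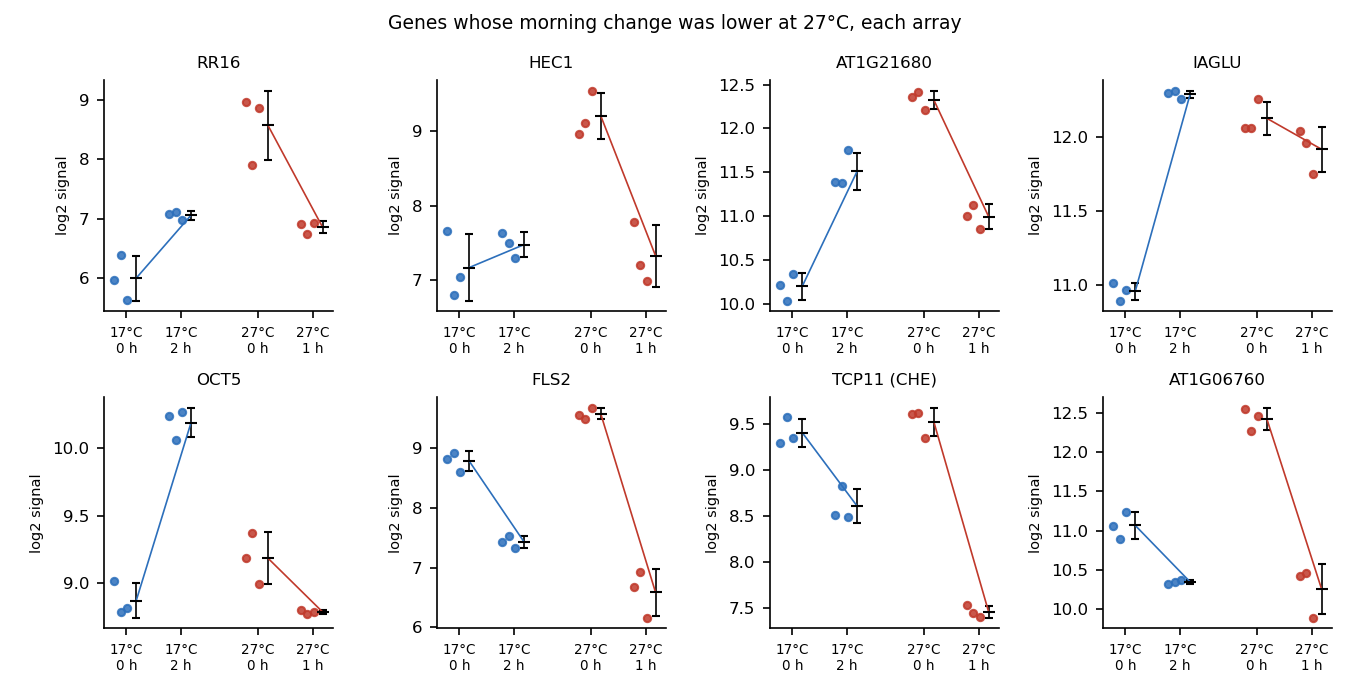
The log2 signal of each of the 12 total RNA arrays (points, blue for 17°C and red for 27°C) is shown for 8 genes whose change was lower at 27°C, with the group mean and SD (n = 3) in black and a line joining the means of each temperature. RR16 and AT1G21680 rise at 17°C and fall at 27°C, IAGLU and OCT5 rise at 17°C alone, HEC1 falls at 27°C alone, and FLS2, TCP11 and AT1G06760 fall further at 27°C.

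Gene lists of pathways that answer to dawn or warmth were sparsely covered, since many loci had no named probe set or a signal under 50. Of 38 clock loci, 11 were tested and 1 was called, TCP11, in the lower direction that held for 1.66% of all probe sets tested. This gene, listed also as CHE or CCA1 HIKING EXPEDITION, encodes a repressor of the clock gene CCA1. It fell at 17°C from 625, 762 and 649 to 364, 452 and 359 and at 27°C from 775, 785 and 651 to 185, 174 and 169 (difference -1.26 ± 0.20, adjusted p = 0.00208). The dawn signals overlapped between the temperatures, and the end signals did not.

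The other clock genes tested were not called, and the list had a median difference of -0.30 against 0.03 over all probe sets tested. AT1G69570, listed as CDF5, had called falls of -2.35 at 27°C and -1.56 at 17°C (difference -0.79, adjusted p = 0.0492). TOC1, the evening repressor, had called falls of -1.79 at 27°C and -1.12 at 17°C (difference -0.66, adjusted p = 0.0956). TIC had a called fall at 27°C only (difference -0.62, adjusted p = 0.135). The morning factor RVE2 had changes of -3.32 and -3.49 (difference 0.17, adjusted p = 0.794), and CDF2, a repressor of flowering, -1.14 and -1.90 (difference 0.75, adjusted p = 0.137). With the change at 17°C divided by its 2 h, 4 clock genes were called lower (6.38% of all probe sets tested were). Among them were AT1G69570 (-1.57), TOC1 (-1.23) and RVE2, whose difference turned to -1.58 (adjusted p = 0.000594). That of CDF2 turned to -0.20 and was not called. At an adjusted p under 0.05 without a limit on the fold, 2 were called lower, and without the limit on signal none.

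Of 43 heat shock loci, 8 were tested, 2 were called higher, AT1G54050 and AT2G29500, and none lower, beside 0.721% higher and 1.66% lower over all probe sets tested. The median was 0.67, and 7 of the 8 differences were positive. Fes1A, a nucleotide exchange factor of HSP70, rose by 2.71 at 27°C and 2.26 at 17°C (difference 0.45, adjusted p = 0.234). HSFB2A, a heat shock factor of class B, had a difference of 0.75 (adjusted p = 0.0818) and HSA32, needed for lasting thermotolerance, of 0.98 (adjusted p = 0.0739), with called rises at 27°C in both. The other tested members did not rise. AT4G21870 had called falls of -0.69 at 27°C and -1.28 at 17°C (difference 0.59, adjusted p = 0.104). HSF1 had uncalled estimates of -0.16 and -0.535 (difference 0.38), and HSF3 of -0.64 and -0.52 (difference -0.13). With a minimum signal of 100 neither of the called loci was tested, which left no call in the list, and without a limit on signal neither was called. With the change at 17°C divided by its 2 h, Fes1A (1.58) and HSFB2A (0.82) were called higher as well, beside 5.14% of all probe sets tested.

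Of 36 histone loci, 9 were tested and 1 was called lower, beside 1.66% of all probe sets tested. This was AT1G06760, which fell at 17°C from 2140, 1900 and 2420 to 1280, 1300 and 1320 and at 27°C from 6000, 4960 and 5640 to 1370, 1400 and 945 (difference -1.46 ± 0.23, adjusted p = 0.00200). The dawn arrays of 27°C were the highest, and the end arrays overlapped. The median of the list was -1.02, and 8 of the 9 differences were negative. The H2B genes HTB1 (-1.26, adjusted p = 0.0217), HTB2 (-1.16, adjusted p = 0.0632) and HTB11 (-1.02, adjusted p = 0.0442) and the H2A gene RAT5 (-1.42, adjusted p = 0.0200) were not called at 0.01. Near-identical histone copies can share probes. At an adjusted p under 0.05 without a limit on the fold, 6 of the 9 were called lower, beside 4.27% of all tested. With a trend and robust variances 3 were called (2.26% of all), with the change at 17°C divided by its 2 h 7 (6.38% of all), and without the limit on signal none. At the limits used here, 2 were called without 17°C 2 h replicate 1 or without 27°C 0 h replicate 2.

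No growth hormone or cell wall gene was called among the 5 tested of 21, yet several lay close to the limit. XTH15, an enzyme that remodels xyloglucan, had 2660, 2420 and 996 at 17°C at 0 h and 332, 454 and 412 after 2 h, and 9330, 10300 and 6820 at 27°C at 0 h and 481, 497 and 484 after 1 h (difference -1.93 ± 0.41, adjusted p = 0.0117). The dawn signals did not overlap, and 1 array of 17°C at 0 h was well below its replicates. Without that array, replicate 3, or without replicate 1 of the group, 1 gene of the list was called lower. The list had 2 lower calls with 32 added to the signal or with a trend and robust variances, 1 with a minimum signal of 100, and 3 at an adjusted p under 0.05 without a limit on the fold or with the change at 17°C divided by its 2 h. Over all probe sets tested the lower calls were 2.01%, 2.26%, 1.95%, 4.27% and 6.38% in these settings. ST2A, a sulfotransferase that acts on jasmonates, had a difference of -1.45 (adjusted p = 0.0161), CPD, an enzyme of brassinosteroid synthesis, of -0.73 (adjusted p = 0.0183), EXO, a growth gene on the starch and sugar list, of -1.34 (adjusted p = 0.0184), and RUP1, a repressor of ultraviolet light signaling, of -1.11 (adjusted p = 0.0158). Without 27°C 0 h replicate 2, 1 gene each of the light signaling list and of the jasmonate, touch and wounding list was called lower. RUP1 of the light signaling list and EXO of the starch, sugar and starvation list were called lower with a trend and robust variances, at an adjusted p under 0.05, and with the change at 17°C divided by its 2 h.

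The remaining lists with tested members also held no call. These were cold and dehydration (3 tested, median -0.59), auxin response (6, -0.12), light harvesting and carbon fixation (4, -0.05), jasmonate, touch and wounding (2, -0.38), low oxygen (2, 0.15), flavonoid synthesis (2, -0.36) and protein folding in the endoplasmic reticulum (4, 0.07). The largest absolute differences in them were those of TCH2, a calmodulin-like touch gene (-0.80, adjusted p = 0.0742), and BZIP28, a regulator of the unfolded protein response (0.79, adjusted p = 0.0394). ZAT10, listed under the symbol STZ, a zinc finger gene of cold and drought, had -0.74 with an SE of 0.75, since its signals at 27°C at 0 h were 187, 142 and 855.

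Among 65 tested plastid-encoded genes, 53 had a positive difference, the median was 0.25 against 0.03 over all probe sets tested, and none was called. The signs depended on single arrays. Without 27°C 1 h replicate 2, several turned negative, among them atpF (-0.37), psbD (-0.21) and accD (-0.18), while psbM turned positive. The widest was that of cemA, an envelope protein, with a difference of 1.09 ± 0.46 (adjusted p = 0.170). Plastid transcripts mostly lack the long poly(A) tails on which array labeling rests. The 3 cytosolic ribosomal protein genes identified had differences of 0.10 to 0.18, and no mitochondrion-encoded gene was tested.

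**Figure D5:**
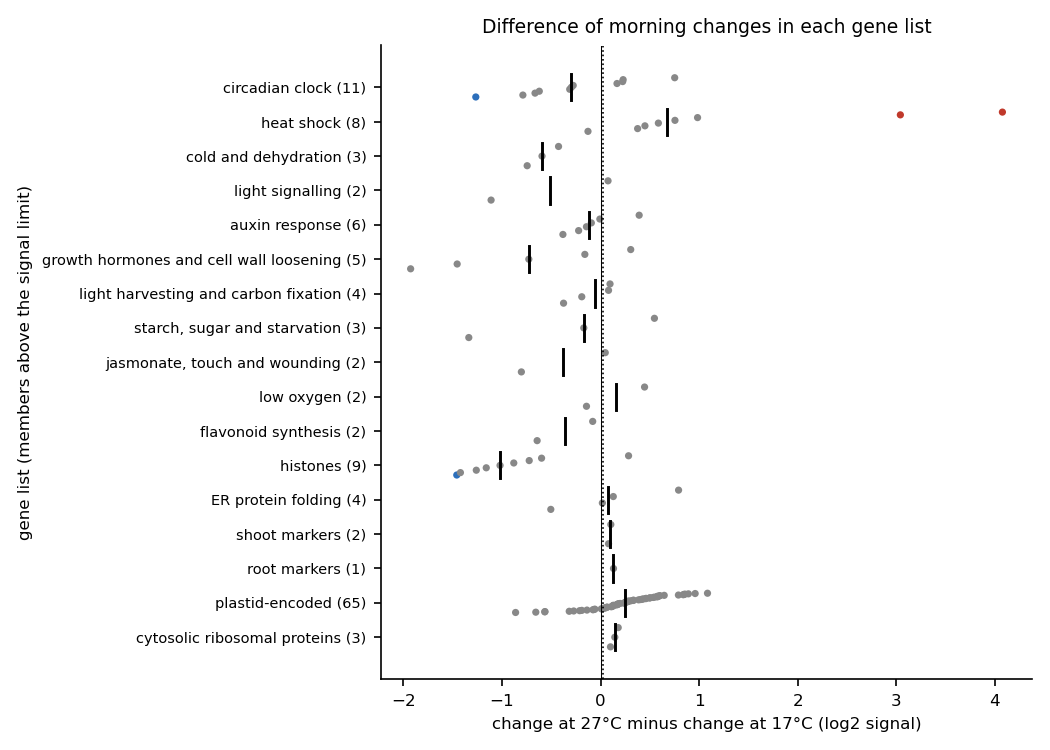
Each point is a tested member of a gene list, placed by its change at 27°C minus its change at 17°C in log2 signal, with called genes in red (higher) and blue (lower), the list's median as a black bar and the median of all probe sets tested, 0.03, as a dotted line. The 2 called heat shock genes lie at 4.08 and 3.04, and the histone members lie left of 0 except for HTA6 at 0.28.

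The labeled and unlabeled RNA was split from the same end samples, so it describes the end gap and not the change. In labeled RNA the median of 27°C minus 17°C was 0.18 over the 93 probe sets with a higher change and -0.71 over the 214 with a lower one, against 0.02 over all tested. In unlabeled RNA the medians were -0.19, -0.45 and -0.08. AT1G54050 had labeled signals of 4600, 5530 and 7640 at 27°C and 623, 359 and 260 at 17°C, and unlabeled signals of 1950, 2440 and 3110 against 159, 162 and 176. Its gap was thus 3.90 in labeled and 3.89 in unlabeled RNA. MKK9 was lower at 27°C in both, by -1.91 and -1.39, and UGT73B1 by -1.92 and -1.54, whereas RR16 had gaps of 0.11 and 0.16. Each array was scaled to a common mean, so gaps between fractions do not compare amounts of RNA.

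Genes near the floor of the array at dawn were left out by the limit of 50. Without it, 42 probe sets were called, 4 higher and 38 lower, of which 37 were called with the limit too. The 5 others included GI, the clock gene GIGANTEA, which peaks in the day. GI had 2.37, 5.73 and 1.74 at 17°C at 0 h and 531, 734 and 645 after 2 h, and 143, 157 and 192 at 27°C at 0 h and 610, 723 and 645 after 1 h. It was near the floor at dawn at 17°C only, and the end signals overlapped. The fitted difference was -5.77 (adjusted p = 0.00302), and it was -2.41 (adjusted p = 0.000204) when 32 was added to each signal, as the size of a fold against such low signals is uncertain. Leaving out an array kept the call only for 17°C 0 h replicates 2 and 3, and the adjusted p reached 0.0155 in the other 10 cases.

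AT4G34950 rose from 62.1, 39.1 and 50.4 to 507, 572 and 543 at 17°C and fell from 1520, 1930 and 1370 to 275, 574 and 317 at 27°C, a difference of -5.55 (adjusted p = 0.00107) or -4.82 with 32 added. AT1G20070 had a difference of -4.20 (-3.41 with 32 added). AT3G62950 and AT4G29030 had higher changes at 27°C, of 5.06 and 3.58 (1.25 and 1.53 with 32 added), and their signals at 27°C at 0 h were all under 10 after 108 to 139 and 854 to 1030 at 17°C. All 4 stayed called with 32 added. Without 17°C 0 h replicate 2 neither AT3G62950 nor AT4G29030 was called (adjusted p = 0.0101 for both), the latter was lost also without 17°C 0 h replicate 1 or 27°C 0 h replicate 3, and AT1G20070 was lost in 8 of the 12 cases, while AT4G34950 was called in each.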

How the data were processed

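Affymetrix ATH1 arrays were hybridized with RNA from 3 biological replicates of each condition. The authors made the deposited values with MAS5 (version not given in the sources used here), as signal intensity per probe set on a linear scale with a common mean per array. Array number limits the precision. The p-values set each difference against the spread between replicates within all 4 groups, with variances drawn together across probe sets.

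From the 22810 probe sets, 64 AFFX controls and 9840 with a signal under 50 on any of the 12 total RNA arrays were left out, the latter in place of the MAS5 detection calls used by the authors. The limma package 3.58.1 under R 4.3.3 fitted log2 signals over all 4 groups (lmFit, eBayes), without a block and in place of the SAM test named in the methods. Calls needed a Benjamini-Hochberg adjusted p under 0.01 over all 12906 probe sets and a difference above 1.5-fold. The fit was tested on simulated data.

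Locus names came from the platform annotation (13436 probe sets) and the paper's rate table (826), with 528 of several genes and 7956 of none. Symbols are those of RefSeq TAIR10.1. Named genes are the 15 largest differences in each direction with 1 locus, the called members of a list up to 4 (or its largest difference), and up to 5 in each direction called only without the limit on signal. Called genes with a symbol were added after their values were seen. Lists took the brightest probe set of a locus. Members, lists and rules were chosen with earlier results of these data known. Alternatives covered scaling, the limit on signal, an added constant of 32, a trend with robust variances, thresholds, a replicate block, the change per hour and leaving out each array. Promoter motifs were not analysed here.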

Additional observations from a re-analysis of the deposited data

Results flagged for a closer look

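The morning change differed between the temperatures, by a test of the difference itself, for 93 probe sets in the higher and 214 in the lower direction. Among them, 3 rose at 27°C and fell at 17°C, and 26 fell at 27°C and rose at 17°C, each change being called on its own. Over all probe sets tested these courses held for 0.0232% and 0.201%.

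The named genes with a higher change at 27°C, with the log2 difference of 27°C minus 17°C, were AT1G54050 (4.08), AT2G29500 (3.04), AT2G34620 (2.25), AT4G09890 (2.11), AT5G48490 (1.97), AT4G26600 (1.84), AT1G30070 (1.81) and AT1G19330 (1.72). Further such genes were Cpn60beta2 (1.67), AT1G65490 (1.66), AT3G26510 (1.65), AT1G08610 (1.65), AT1G66250 (1.52), AT3G10530 (1.47) and AT5G25280 (1.46).

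Lower changes at 27°C were found for RR16 (-2.77), AT1G44830 (-2.69), AT1G21680 (-2.64), AT4G28310 (-2.60), AT5G35735 (-2.56), AT1G08230 (-2.43), AT5G05190 (-2.33) and AT2G28720 (-2.33). They were found as well for AT4G37220 (-2.28), HEC1 (-2.19), AT4G35940 (-2.15), MKK9 (-2.11), AT2G16660 (-1.94), AT4G37240 (-1.93) and AT1G19540 (-1.90). Groups of 3 are too small for a search for single outlying samples.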

How the results depend on the processing

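With 93 probe sets higher and 214 lower as reported, quantile normalization gave 98 and 216, median centring 101 and 207, a minimum signal of 100 gave 100 and 213, log2(signal + 32) gave 112 and 260, and an adjusted p under 0.01 without a fold limit gave 93 and 214. The counts moved by over 1.5 times to 4 and 38 without the limit on signal, to 52 and 124 with a mean signal of at least 50, and to 409 and 551 at an adjusted p under 0.05 without a fold limit. A trend with robust variances moved the higher count to 163, with 292 lower, and the change at 17°C divided by its 2 h gave 664 and 824. The causes were not tested. Leaving out 1 array gave 41 to 107 higher and 117 to 220 lower.

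The replicate number as a block gave 61 higher and 151 lower, of which 57 and 147 were called without it. Same-numbered arrays did not deviate together (r from -0.23 to 0.16 over 18 pairs, 1 above 0.1), so the numbers do not pair the samples.

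None of the called named genes changed sign in the alternatives run. Of 188 named genes and list members, 18 changed sign with the change per hour (RVE2 and CDF2 among them), 2 with quantile normalization, 1 with median centring and 5 to 14 when an array was left out, and none of these was called as reported. Of 75 gene values, 52 calls were lost without the limit on signal, 23 with the mean signal limit, 11 with the block, 4 each with median centring and the change per hour, 2 with quantile normalization and 1 with the trend. Over the 12 arrays left out in turn, 203 of 900 values lost a call.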
